A study of Mus musculus with 9 samples.

Results

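The 10 genes described here make or control the cartilage matrix without being collagens: the transcription factors Sox9, Sox5 and Sox6, the aggrecan core protein Acan, the link protein Hapln1, the matrilins Matn1 and Matn3, the oligomeric protein Comp, and the small secreted products Cnmd and Ucma. They were chosen by name, with earlier results of these data known, and all 10 were found among the 43644 genes of the deposited table. RNA was sequenced in 9 libraries from the coronal suture, where the parietal bones of the skull vault meet the frontal bones, of C57BL/6 mice aged 7 months. REG mice were Twist1+/- and had undergone suture regeneration surgery when they were 1 month old, MUT mice were Twist1+/- and had no surgery, and WT mice were wild type and had no surgery. Each group had 3 libraries. REG and MUT thus shared the loss of 1 Twist1 copy, and MUT and WT shared the lack of surgery. The labels do not say what the surgery consisted of, whether a suture was fused when it was collected, or whether the libraries of a group are different animals, so the p-values below measure the spread between these libraries. Values are the deposited upper-quartile scaled gene counts unless another scale is named.

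Chondrocytes are the cells of cartilage. SOX9 commits mesenchymal cells to this fate and switches on the genes of the cartilage matrix, with SOX5 and SOX6 as its partners at many of them. In that matrix aggrecan, a large proteoglycan, is bound to hyaluronan by link protein, while matrilins and COMP connect the collagen fibrils with other components. The flat bones of the skull vault form mainly without a cartilage template, but cartilage forms at some sutures and in healing bone, and the comparison asks whether cartilage genes distinguish Twist1+/- or regenerated sutures.

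Twist1, the gene carried in 1 copy by REG and MUT mice, had 3.76, 9.19 and 12.2 in REG, 0.987, 8.08 and 0.548 in MUT, and 16.2, 23.3 and 23.1 in WT. All REG and MUT libraries lay below all WT libraries, and MUT replicate 2 stood apart from the other MUT libraries. Twist1 fell by 3.26 on the log2 scale in MUT relative to WT (SE 0.76, adjusted p = 0.0109 by limma), and with MUT replicate 2 alone as the group the difference was -1.31 (adjusted p = 0.223). The libraries also differed in depth and background. Depth, as estimated gene reads, was 18276494 to 39377876 in REG libraries, 2945636 to 10894209 in MUT libraries and 16356391 to 20019712 in WT libraries. The background, estimated from 1747 olfactory and vomeronasal receptor genes, was 0.509% to 0.849% of the reads in REG, 7.86% to 23.2% in MUT and 0.615% to 0.867% in WT. Twist1 rested on 59.5 and 25.1 estimated reads in MUT replicates 1 and 3. These were 1.81 and 1.17 times the number that this background gives for its exon length. The ratio was 26.6 in MUT replicate 2 and 312 to 552 in WT, so the size of the fall rests on 2 libraries near background. The name that the deposited matrix gives REG replicates 1 and 2 differs in form from that of REG replicate 3, and MUT replicate 2 does not carry the name of its group there, as the other MUT libraries do; its group is taken from its title. Where leaving out 1 library changed the call of a member, that library is named.

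Across the 10 genes no common direction appeared. In MUT relative to WT, Comp, Acan, Sox6, Sox9 and Sox5, at 5.33 or more in every WT library, had negative changes, called or not. Hapln1, Matn1, Matn3 and Cnmd, at 2.59 or less in every WT library, had positive ones. The part of level or background in this split was not tested. In these bulk samples fewer cells of a type and less RNA per cell cannot be told apart. In MUT relative to WT, Comp and Sox6 were lower and Matn3 was higher, which makes 3 of the 9 genes that could be tested, while 35.1% of all 29107 genes tested were called in that comparison (20.5% higher and 14.6% lower). Acan and Comp were higher and Matn3 was lower in REG than in MUT, again 3 of 9, against 36.6% of all genes (11.8% higher and 24.8% lower). In REG relative to WT none of the 9 was called, as was none of all genes (0%) by limma. At an unadjusted p under 0.05 that comparison held 2755 genes of all tested and none of the 9, and the authors' deposited table also lists 0 genes at a false discovery rate (FDR) under 0.05. Groups that did not overlap were counted as well, beside the same share of all genes tested. MUT lay wholly below WT for Sox6, Acan and Comp (25.9% of all genes) and wholly above WT for Matn3 (32.6%). REG lay wholly above MUT for Acan (14%) and wholly below MUT for Matn3 (28.5%), and wholly below WT for Sox5 (12.1%) and wholly above WT for 0 of the 9 (4.03%). The shares of cartilage genes called were thus close to those of all genes. Ucma did not reach the minimum for testing, 0.367 in at least 3 libraries, and is described by its values alone.

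**Figure D1:**
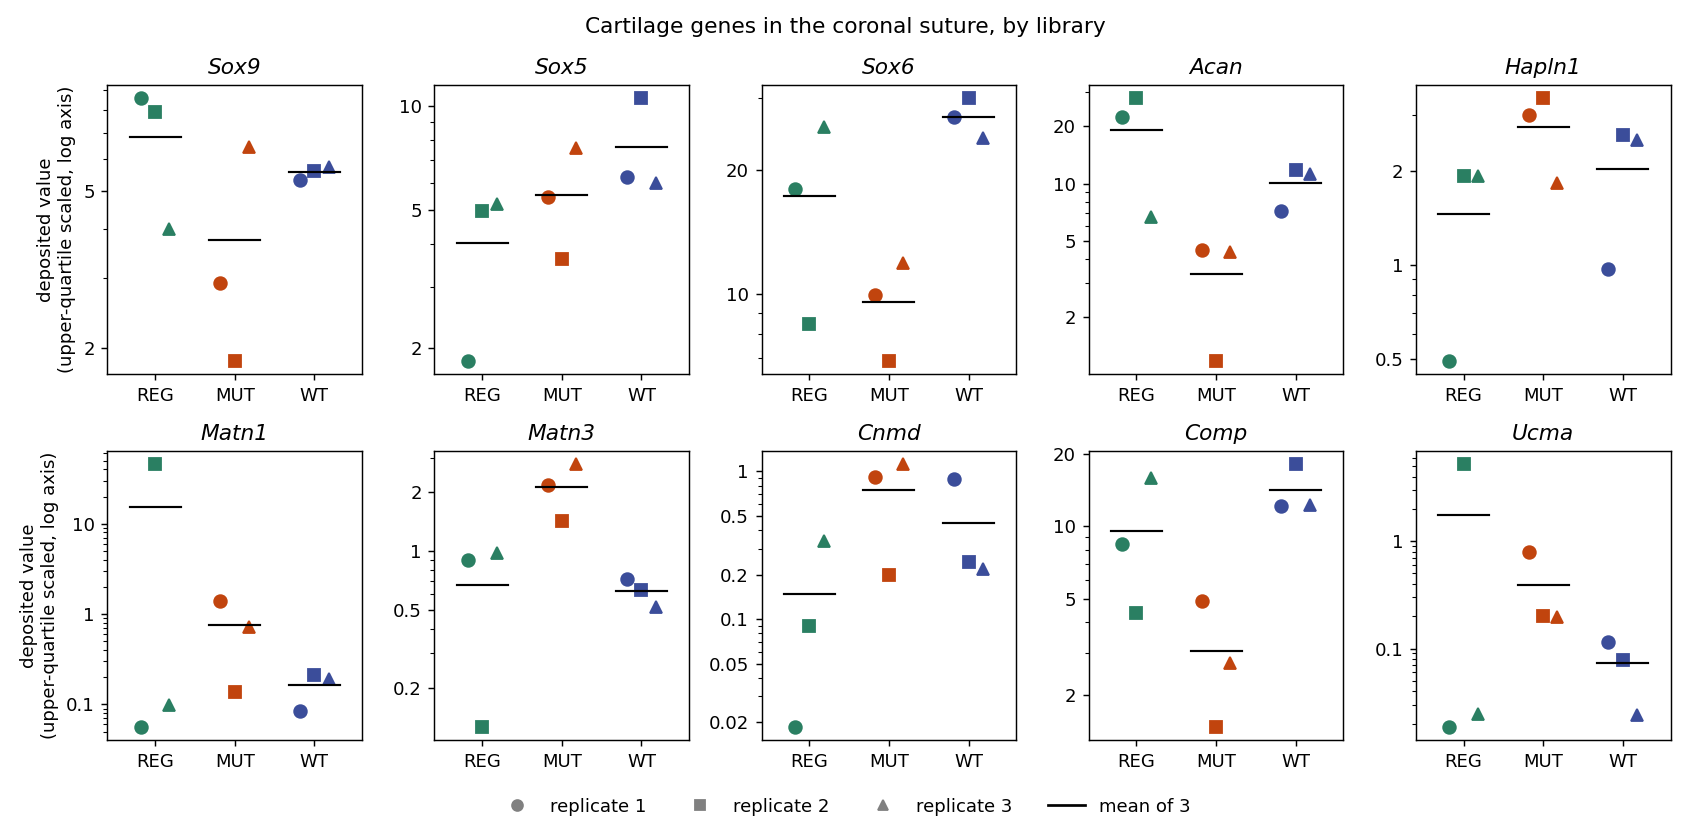
Deposited values (upper-quartile scaled gene counts, log axis) of the 10 cartilage genes in each library, by group, with symbols for replicates 1 to 3 and a line at the mean of each group. Comp and Sox6 lie lower in all MUT libraries than in any WT library, Acan lies higher in all REG libraries than in any MUT library, and Matn1 and Ucma are high in REG replicate 2 alone.

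Sox9 (chromosome 11, 112782224 to 112787760), the regulator on which chondrocyte identity depends, had 8.57, 7.92 and 3.99 in REG, 2.91, 1.86 and 6.47 in MUT, and 5.33, 5.60 and 5.74 in WT. The WT libraries were nearly equal, whereas REG replicate 3 and MUT replicate 3 each departed from the other libraries of their group, so that REG and MUT overlapped. Sox9 was not called in any comparison. The difference of REG from MUT was 0.90 on the log2 scale, with a 95% interval from -0.14 to 1.93 (adjusted p = 0.156), and it passed the threshold without MUT replicate 3 (1.35, adjusted p = 0.0496) or with trimmed-mean scaling (1.48, adjusted p = 0.0461). The difference of MUT from WT was -0.69 (95% interval -1.72 to 0.35, adjusted p = 0.272) and turned positive, to 0.46, with total-read scaling. REG and WT differed by 0.21 (95% interval -0.82 to 1.25, adjusted p = 0.891), or by -0.44 with REG replicate 3 alone as the group.

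Sox6 (chromosome 7, 115470872 to 116038796) encodes a partner of SOX9 at cartilage enhancers and is also known from erythroid and muscle cells. It had 18, 8.48 and 25.5 in REG, 9.98, 6.89 and 11.9 in MUT, and 26.9, 29.9 and 24 in WT. Every MUT library lay below every WT library, and the REG libraries spread over the range of both. Sox6 fell by 1.48 on the log2 scale in MUT relative to WT (SE 0.43, adjusted p = 0.0259). This call was lost without any 1 of 5 libraries, with adjusted p = 0.0690, 0.0931 and 0.0665 without WT replicates 1, 2 and 3, and 0.0609 and 0.0661 without MUT replicates 1 and 2. It was also lost with quantile scaling (-0.43), total-read scaling (-0.26) and subtraction of the background (-0.99). REG exceeded MUT by 0.73 (95% interval -0.24 to 1.70, adjusted p = 0.216), a difference that passed the threshold without REG replicate 2 (1.16, adjusted p = 0.0335) or with trimmed-mean scaling (1.33) and changed sign with quantile (-0.21) and total-read scaling (-0.14).

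Sox5 (chromosome 6, 143828425 to 144781977), the closest relative of Sox6, had 1.84, 4.99 and 5.23 in REG, 5.48, 3.63 and 7.56 in MUT, and 6.24, 10.6 and 6.02 in WT. All REG libraries were below all WT libraries, which 12.1% of all genes tested also were, but the difference of -0.93 (95% interval -1.97 to 0.10) was not called (adjusted p = 0.545). MUT overlapped both other groups. MUT differed from WT by -0.44 (adjusted p = 0.486), and by 0.22 and 0.74 with quantile and total-read scaling, while REG differed from MUT by -0.50 (adjusted p = 0.436), and by 0.08 with trimmed-mean scaling.

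Acan (chromosome 7, 79053483 to 79115099) encodes aggrecan, the proteoglycan whose chondroitin sulfate chains hold water in cartilage. It had 22.2, 28.0 and 6.67 in REG, 4.47, 1.17 and 4.39 in MUT, and 7.21, 11.8 and 11.3 in WT. The MUT libraries were the lowest, below every library of the other groups, and REG replicates 1 and 2 were the highest, above every WT library. Acan was 5.03-fold higher in REG than in MUT (log2 2.33, SE 0.61, adjusted p = 0.0159) and stayed past the threshold whichever library was left out. With REG replicate 3 alone as the group the difference was 1.10 (adjusted p = 0.222). It also missed the threshold with quantile scaling (1.99, adjusted p = 0.0880), total-read scaling (1.54, adjusted p = 0.144), background subtraction (2.92, adjusted p = 0.0650) and a fit of REG and MUT only (adjusted p = 0.0516).

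In MUT relative to WT, Acan differed by -1.64 (95% interval -3.0 to -0.27, adjusted p = 0.0614), and it passed the threshold without REG replicate 2 (adjusted p = 0.0400) or REG replicate 3 (adjusted p = 0.0271), which enter only the shared estimate of spread. The lowest value, in MUT replicate 2, came from 10.8 estimated reads. REG and WT differed by 0.69 (95% interval -0.67 to 2.06, adjusted p = 0.712), and by -0.54 with REG replicate 3 alone.

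Hapln1 (chromosome 13, 89539796 to 89611652) encodes the link protein that fixes aggrecan to hyaluronan. It had 0.494, 1.93 and 1.93 in REG, 3.00, 3.41 and 1.83 in MUT, and 0.970, 2.59 and 2.51 in WT. The groups overlapped throughout. Hapln1 was highest in MUT replicate 2, where Acan was lowest, but there Hapln1 rested on 33.2 and Acan on 10.8 estimated reads. These were 3.04 and 0.780 times the number that the background of the library gives for the exon length. For Hapln1 that ratio was 1.54 and 1.11 in MUT replicates 1 and 3. REG differed from MUT by -0.88 (95% interval -1.99 to 0.24, adjusted p = 0.197) and MUT from WT by 0.43 (95% interval -0.68 to 1.55, adjusted p = 0.523). Total-read scaling gave -1.67 (adjusted p = 0.0210) and 1.52 (adjusted p = 0.0307) for those differences.

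Comp (chromosome 8, 70373558 to 70382066) encodes a thrombospondin that binds collagens in cartilage and is also abundant in tendon and ligament. It had 8.47, 4.39 and 15.9 in REG, 4.92, 1.48 and 2.72 in MUT, and 12.2, 18.1 and 12.2 in WT. MUT lay wholly below WT, and REG overlapped both groups. Comp was 4.6-fold lower in MUT than in WT (log2 -2.20, SE 0.53, adjusted p = 0.0121). This fell short of the threshold without WT replicate 2 (-2.02, adjusted p = 0.0564), with quantile scaling (-1.84, adjusted p = 0.0539), with total-read scaling (-1.06, adjusted p = 0.183) and after background subtraction (-1.51, adjusted p = 0.146).

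In REG relative to MUT, Comp was 2.83-fold higher (log2 1.5, SE 0.53, adjusted p = 0.0478), although REG replicate 2, at 4.39, lay below MUT replicate 1. This call was lost under 21 of the 26 alternatives. Among them were the fits without any 1 of WT replicates 1, 2 and 3 (adjusted p = 0.0703, 0.0680 and 0.0726), MUT replicates 2 and 3 (0.138 and 0.109), and REG replicates 1 and 3 (0.0877 and 0.134). REG and WT differed by -0.70 (95% interval -1.87 to 0.48, adjusted p = 0.665).

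Matn3 (chromosome 12, 8947929 to 8972028) encodes a matrilin, an adaptor between collagen fibrils and proteoglycans. It had 0.895, 0.126 and 0.981 in REG, 2.17, 1.42 and 2.78 in MUT, and 0.720, 0.629 and 0.514 in WT. Every MUT library exceeded every library of the other groups. Matn3 was 2.46-fold higher in MUT than in WT (log2 1.30, SE 0.44, adjusted p = 0.0447) and 2.57-fold lower in REG than in MUT (log2 -1.36, SE 0.44, adjusted p = 0.0363). The first call was kept under 12 and the second under 11 of 25 alternatives. Both were lost with trimmed-mean scaling (log2 1.11 and -0.96), quantile scaling (0.94 and -0.84), a constant 10 times lower (adjusted p = 0.0987 and 0.0557), limma with a trend (adjusted p = 0.0678 and 0.0565) and MUT replicate 2 alone as the group (0.86 and -0.92), and without any 1 of several libraries. For MUT against WT these were WT replicates 1, 2 and 3 (adjusted p = 0.0880, 0.118 and 0.131) and MUT replicates 1 and 3 (0.107 and 0.134). For REG against MUT they were WT replicates 1, 2 and 3 (0.0560, 0.0597 and 0.0590), MUT replicates 1 and 3 (0.0932 and 0.116) and REG replicate 2 (0.0747).

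Matn3 also stands at a low level. In MUT its reads were 2.16 to 3.31 times the number that the background of the library gives for its exon length, against 5.10 to 7.73 times in WT, so the group with the higher values was the one closer to background. After subtraction of that background MUT exceeded WT by 1.79 on the log2 scale (adjusted p = 0.0645).

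**Figure D2:**
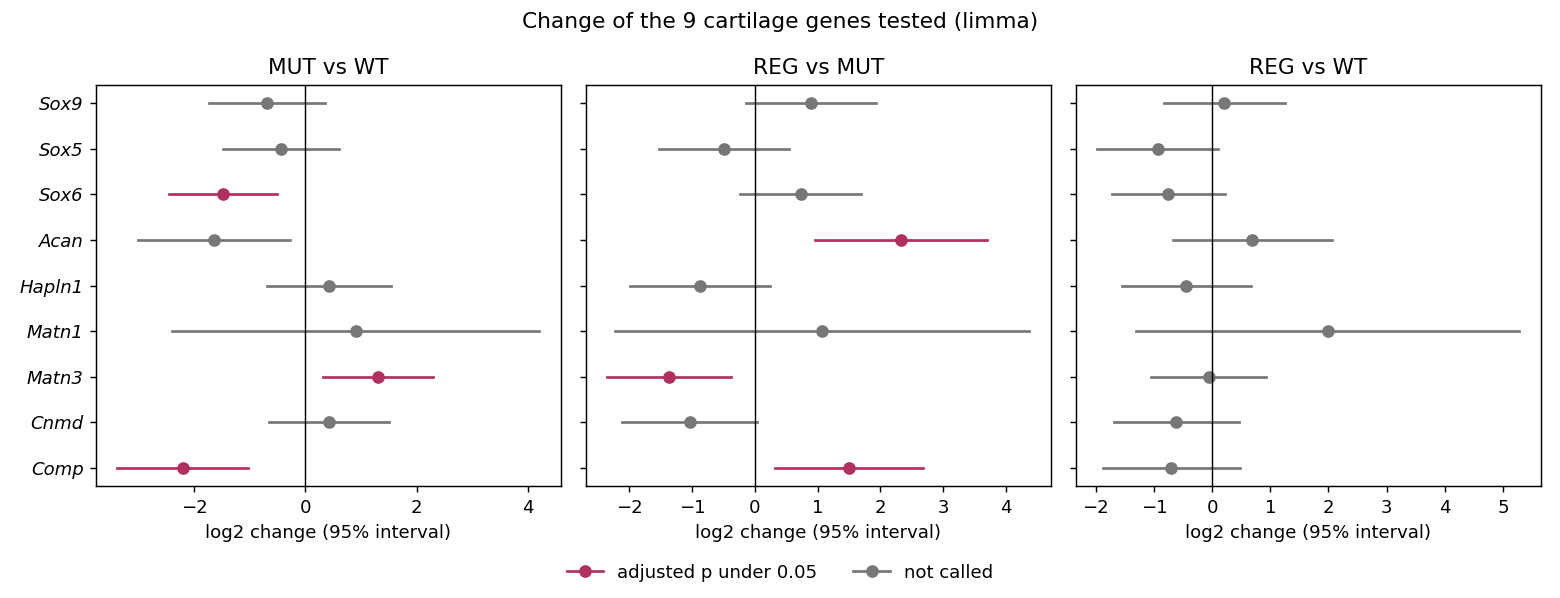
Log2 change with its 95% interval (limma) for the 9 cartilage genes tested, with 1 panel per comparison and called genes coloured. Comp and Sox6 lie left of 0 and Matn3 right of 0 in MUT vs WT, Acan and Comp lie right of 0 and Matn3 left of 0 in REG vs MUT, and every interval in REG vs WT includes 0.

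Matn1 (chromosome 4, 130944385 to 130955475), a matrilin known almost only from cartilage, and Ucma (chromosome 2, 4976122 to 4985748), which encodes a small Gla-rich protein secreted by chondrocytes, shared a pattern that no other member had. Matn1 had 0.0563, 45.8 and 0.0977 in REG, 1.41, 0.139 and 0.714 in MUT, and 0.0855, 0.211 and 0.191 in WT. Ucma had 0.0186, 5.23 and 0.0244 in REG, 0.786, 0.200 and 0.198 in MUT, and 0.115, 0.0791 and 0.0241 in WT. Both rested on at most 7 estimated reads in each of the other REG and the WT libraries and were high in REG replicate 2 alone.

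Matn1 in that library rested on 4092 estimated reads, 997 times the number the background gives and 32.5 times the value of the next library, MUT replicate 1. Ucma was 6.65 times above the next library, also MUT replicate 1. Ucma had 0 estimated reads in REG replicate 3 and WT replicate 3, which allows up to 0.164 and 0.151 RPM (reads per 1e+06 reads), counting error only. Among all 43644 genes, Matn1 ranked 39 and Ucma 431 by the ratio of REG replicate 2 to the highest other library. A ratio of 10 or more was reached by 247 genes (0.566%) in REG replicate 2, 166 in MUT replicate 2, 95 in MUT replicate 3, 67 in REG replicate 1, and 0 to 6 in each of the other 5 libraries.

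No other listed cartilage gene reached the ratio of Matn1 or Ucma to the highest other library. Within REG, however, Frzb had 4.50 in replicate 2 against 0.607 and 0.443 in the other libraries. The regulator Nkx3-2 had 5.28 there, against 0.460 and 0.332. Their highest other libraries were MUT replicate 1 for Frzb (2.32) and MUT replicate 2 for Nkx3-2 (6.97). In REG replicate 2 Col2a1, the main collagen of cartilage, had 20.3, below REG replicates 1 and 3 (31.6 and 46.2), and the ratio to the highest other library reached 1.94 for Frzb, 1.30 for Prg4 and 1.26 for Col9a2 as the highest of the cartilage collagens and other matrix genes. Within the members, Acan was at 1.26 times the next library and Sox9 was below REG replicate 1. The library with the high Matn1 was also the one with the highest summed level of skeletal muscle markers, 388 against 267 and 39.9 in REG replicates 1 and 3. The part of muscle in the Matn1 reads was not tested.

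As a test between groups the Matn1 values carry no call. REG differed from MUT by 1.08 (95% interval -2.22 to 4.37, adjusted p = 0.603) and from WT by 1.99 (95% interval -1.31 to 5.28, adjusted p = 0.661), and without REG replicate 2 these became -1.16 and -0.25. MUT differed from WT by 0.91 (95% interval -2.39 to 4.21, adjusted p = 0.654). For Ucma all MUT values exceeded all WT values, which 32.6% of all genes tested also did, while its MUT reads were 0.612 to 2.65 times background.

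**Figure D3:**
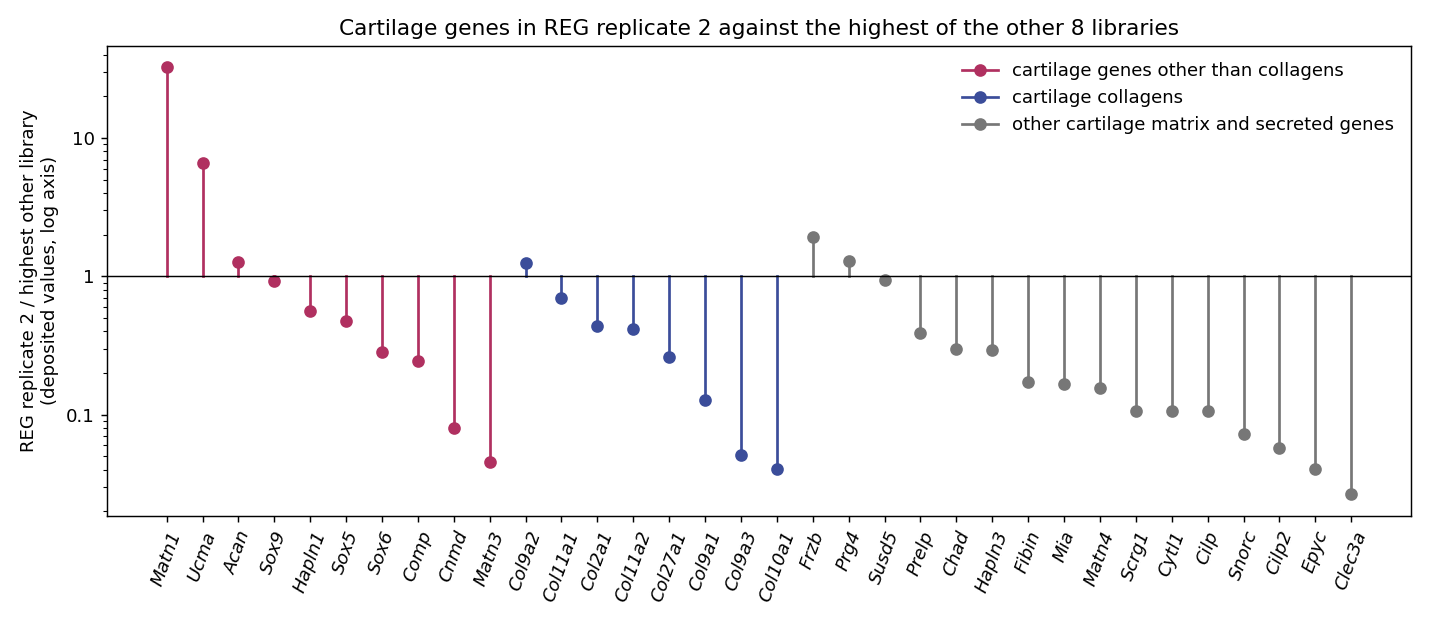
Deposited value in REG replicate 2 divided by the highest of the other 8 libraries (log axis) for the members, the cartilage collagens and the other cartilage matrix genes. Matn1 (32.5) and Ucma (6.65) stand well above 1, and no collagen or other matrix gene exceeds 1.94.

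The promoters of Matn1 and Ucma are shown because these members share the rise in REG replicate 2. Each is the RefSeq window of GRCm38.p6 from 250 bases before to 50 bases after the start of the gene, 5′ to 3′, with matches to CANNTG in capitals. CANNTG is the E-box core, the kind of site that TWIST1 and other basic helix-loop-helix factors are known to bind, and reads the same on both strands.
Matn1, chr4:130944135-130944434, plus strand: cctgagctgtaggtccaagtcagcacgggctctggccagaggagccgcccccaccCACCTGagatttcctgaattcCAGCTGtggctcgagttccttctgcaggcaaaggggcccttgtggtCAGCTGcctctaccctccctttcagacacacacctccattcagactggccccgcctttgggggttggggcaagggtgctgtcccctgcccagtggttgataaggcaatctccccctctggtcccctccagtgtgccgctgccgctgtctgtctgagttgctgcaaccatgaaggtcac
Ucma, chr2:4975872-4976171, plus strand: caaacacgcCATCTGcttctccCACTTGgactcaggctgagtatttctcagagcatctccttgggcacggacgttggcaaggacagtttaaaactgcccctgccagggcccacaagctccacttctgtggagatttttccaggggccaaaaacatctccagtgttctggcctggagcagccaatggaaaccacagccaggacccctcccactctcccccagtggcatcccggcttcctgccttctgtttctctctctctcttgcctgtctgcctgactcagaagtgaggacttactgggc
The Matn1 window held 3 matches and the Ucma window 2. At least 1 match was present in 72.3% of the 32851 windows of this length, and 3 or more in 17.6%. Neither window held ACAAAG or ACAATG on either strand, cores of the kind SOX factors are known to bind, which 28.6% of all windows held. Windows were found for 8 of the 10 members, 13 in all, as Sox6 had more windows than the others. Of these 13, 6 held ACAAAG or ACAATG, all of them windows of Sox5 or Sox6. The share of 28.6% is per window, so Sox6 had more chances of a match than the other members.

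Cnmd (chromosome 14, 79637690 to 79662170) encodes chondromodulin, an inhibitor of blood vessel growth made by chondrocytes. It had 0.0186, 0.0896 and 0.338 in REG, 0.911, 0.200 and 1.12 in MUT, and 0.883, 0.242 and 0.217 in WT. The level was low and varied within every group, down to 1.0 estimated read in REG and MUT, and all groups overlapped. REG differed from MUT by -1.04 (95% interval -2.12 to 0.04, adjusted p = 0.119), and this passed the threshold without MUT replicate 2 (-1.47, adjusted p = 0.0345). MUT differed from WT by 0.42 (adjusted p = 0.518), and by -0.28 with quantile scaling.

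The order of the levels differed between the groups when values were divided by exon length in kb. In WT, Comp was highest at 4.78 ± 1.15 per kb (SD, n = 3 here and below), followed by Sox6 at 1.81 ± 0.20, Acan at 1.35 ± 0.34 and Sox9 at 1.34 ± 0.05, with Matn1 lowest at 0.081 ± 0.034. Acan and Sox9 overlapped there, whereas Comp and Sox6, Sox6 and Acan, and Sox9 and Sox5 did not. In REG the order began with Matn1 at 7.66 ± 13.2, set by 1 library, Comp at 3.23 ± 1.96 and Acan at 2.54 ± 1.48, and among neighbours in the order only Sox6 (1.17 ± 0.57) and Sox5 (0.28 ± 0.13) did not overlap. In MUT the levels ran from 1.02 ± 0.59 for Comp to 0.38 ± 0.32 for Matn1, and all neighbours overlapped.

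The MUT libraries, in which the levels lay close together, also had the highest background. Over the 9 tested members the median ratio of reads to background was 2.04, 2.30 and 2.16 in MUT replicates 1 to 3, against 14.5, 28.3 and 13.2 in WT and 13.5, 24.9 and 20 in REG. All genes tested showed nearly the same medians in MUT, 1.86, 2.53 and 2.08. In MUT the highest ratio of any member was 5.63, for Sox9 in replicate 3, and Acan in replicate 2 was at 0.780, under the background. After the subtraction of background no member was called in any comparison. The part of the background in the differences from MUT was not tested further.

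**Figure D4:**
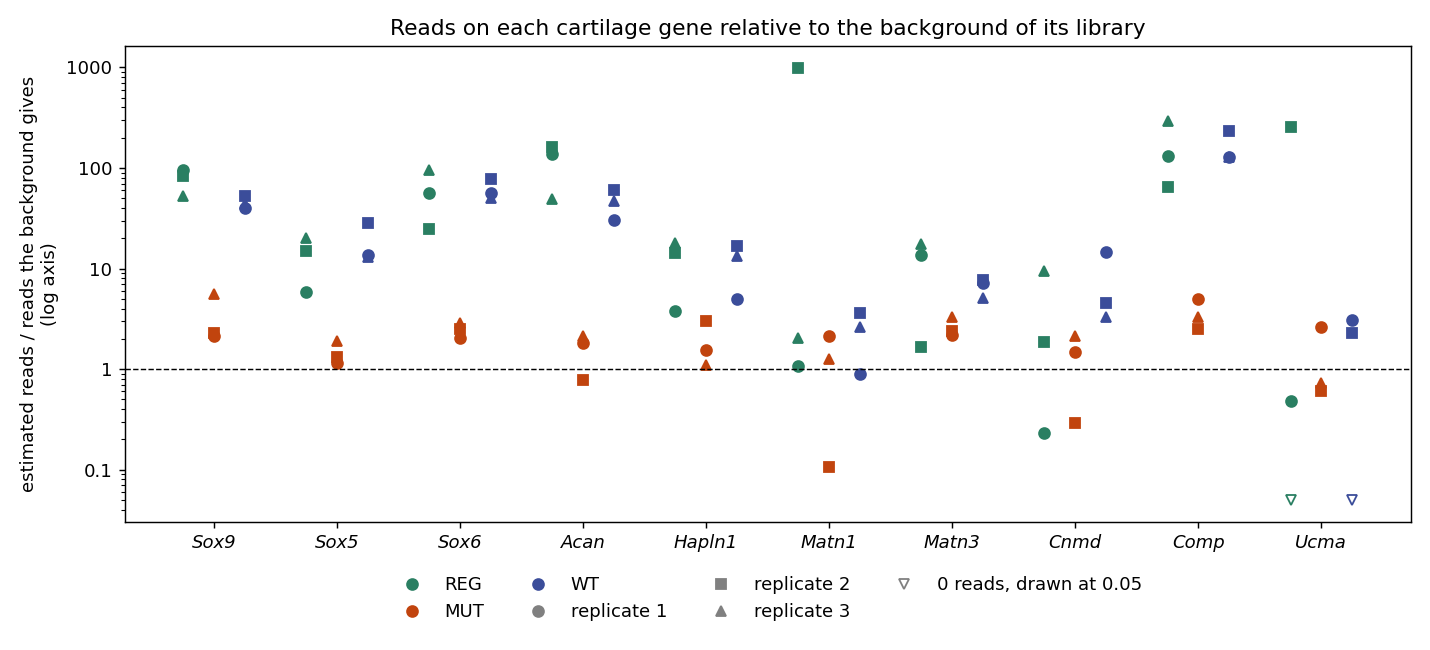
Estimated reads on each cartilage gene divided by the reads that the background of its library gives for its exon length (log axis), for 3 libraries each of REG, MUT and WT. MUT points lie between 0.105 and 5.63, while Comp, Sox9, Sox6 and Acan lie above 20 in every REG and WT library.

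The members differed in how far apart their profiles lay. By the mean absolute difference of their centred log2 profiles over the 9 libraries, the closest pair was Sox6 and Comp (0.372), then Sox5 and Hapln1 (0.465) and Matn3 and Cnmd (0.479), and the most distant was Matn1 and Comp (2.14). The genes closest to Sox9 among all tested were Taf1b (0.163), Taf6l (0.168) and Zdhhc14 (0.196). The members closest to Sox9 were Acan at 0.578, rank 3148, Sox5 at 0.630, rank 4691, and Sox6 at 0.634, rank 4831. All profiles share the same libraries and scaling. The difference also depends on how much each gene varies, so it is not a measure of correlation. The summed level of the 10 members was 60.6 to 107 in REG, 20.4 to 39.7 in MUT and 60.6 to 79.7 in WT. The 107 was that of REG replicate 2, in which Matn1 had 45.8 and Ucma 5.23, and REG replicates 1 and 3 each had 60.6.

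Wider lists of cartilage genes were read beside the members. Of all genes tested, 20.5% were higher and 14.6% lower in MUT than in WT. In REG relative to MUT these shares were 11.8% and 24.8%. A count near these shares does not set a list apart from all genes. The shares depend on level. With the minimum for testing raised 10 times, 11449 genes were tested. Of these, 910 were higher and 3985 lower in MUT than in WT, with a median log2 change of -0.99. In REG relative to MUT 2780 were higher and 872 lower, with a median of 0.73. A list median near these values does not set a list apart from the genes of higher level. Of 8 cartilage collagens, 0 were higher and 2 lower in MUT than in WT, with a median log2 change of -0.84 against 0.18 over all genes tested. Col27a1 fell by 3.70 and Col2a1 by 1.73, to means of 7.44 ± 1.91 and 10.3 ± 7.81 in MUT, against 102 ± 30.3 and 28.6 ± 4.24 in WT. In REG relative to MUT 3 collagens rose and 0 fell (median 0.76 against -0.36), namely Col27a1 by 2.02, Col2a1 by 1.86 and Col11a1, a fibril collagen also made by osteoblasts, by 1.59. Of 11 other matrix and secreted genes tested of 16, 0 were higher and 3 lower in MUT than in WT (median -1.02). These were Prelp, a leucine-rich proteoglycan of cartilage and tendon, at -3.40, Chad at -1.36 and Susd5 at -1.17. In REG relative to MUT, Prelp (3.19) and Susd5 (1.17) rose and Hapln3, a relative of Hapln1, fell by 1.51.

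Of 14 regulators of chondrocytes, all tested, 1 was higher and 7 were lower in MUT than in WT (median -1.52), beside 20.5% and 14.6% of all genes. Pth1r, the receptor for parathyroid hormone and its related protein, which is also strongly expressed by osteoblasts, fell by 4.07 to 8.13 ± 3.92 in MUT, against 131 ± 16.6 in WT. Fgfr3, a receptor that restrains growth plate chondrocytes, fell by 2.56 and Sik3, a kinase of chondrocyte maturation, by 2.36, while Wwp2, a ubiquitin ligase that acts with SOX9, rose by 1.38. Relative to MUT, Pth1r (2.94) and Trps1 (1.75) rose, and Wwp2 (-1.79) and the joint factor Gdf5 (-1.23) fell in REG, with a median of 0.61 over the list.

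Of 12 genes for the synthesis and sulfation of proteoglycan chains, 2 were higher and 4 lower in MUT than in WT (median -0.43). The shares of all genes were 20.5% higher and 14.6% lower there, and 11.8% and 24.8% in REG relative to MUT. The chondroitin sulfotransferase genes moved apart, Chst3 rising by 2.15 and Chst11 falling by 2.61, and Chsy3 rose by 1.77, while Impad1, a phosphatase needed for sulfation, fell by 2.26 and Chpf by 3.10. In REG relative to MUT 3 of these genes were higher and 2 lower (median 0.26): Chsy1 (2.61), Chst11 (2.07) and Impad1 (1.45) rose, and Chsy3 (-2.19) and Chst3 (-2.54) fell. Of 7 genes for the breakdown of aggrecan and cartilage, 0 were higher and 5 lower in MUT than in WT (median -2.42), and 4 were higher and 0 lower in REG than in MUT (median 2.39). Among them were Timp3, a protease inhibitor (-3.77 and 2.56), Cd44, a hyaluronan receptor (-2.12 and 2.24), and Mmp13, a collagenase of chondrocytes and osteoblasts (-3.36 and 3.64). No gene of these 5 lists was called in REG relative to WT.

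The calls of these listed genes differed in how far they depended on the processing and on single libraries, and none changed direction. After background subtraction, MUT against WT lost the calls of Cd44, Mmp13, Chst11, Impad1, Col2a1, Chad and Susd5. REG against MUT then lost those of Chst11, Col2a1, Col11a1, Trps1, Gdf5, Hapln3, Impad1 and Susd5. The other calls named were kept after that subtraction. Col27a1, Prelp, Pth1r and Timp3 were called in MUT relative to WT under all 26 alternatives, and Prelp, Pth1r and Chsy3 in REG relative to MUT. At the other end, the calls of REG against MUT for Impad1, Susd5 and Hapln3 were kept under 9 of 26, 10 of 26 and 11 of 25 alternatives, those of Col2a1 in MUT against WT and in REG against MUT under 15 and 16 of 26, and those of Susd5 and Chad in MUT against WT under 16 of 26 and 16 of 25. With MUT replicate 2 alone as the group, MUT against WT lost the calls of Fgfr3 (-2.63), Mmp13 (-2.93), Sik3, Chst11 (-1.78), Chpf, Impad1, Chst3, Chad and Susd5. In the same setting REG against MUT lost those of Mmp13 (3.20), Chst11, Chsy1, Trps1 (0.90), Col11a1 (0.73), Gdf5, Hapln3, Impad1 and Susd5. With REG replicate 3 alone, REG against MUT lost those of Chst3 (-1.33), Chsy1, Trps1, Wwp2 (-1.23), Gdf5, Hapln3 and Susd5.

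Leaving out 1 library ended some of these calls. In MUT against WT they were Col2a1 (without WT replicate 1, 2 or 3 or MUT replicate 2 or 3, adjusted p from 0.0849 to 0.113), Wwp2 (the same libraries, 0.0877 to 0.111), Chad (WT replicate 1 or 2 or any MUT library, 0.0558 to 0.0971), Susd5 (WT replicate 2 or 3 or MUT replicate 1 or 2, 0.0755 to 0.138), Chst3 (WT replicate 2 or 3 or MUT replicate 2 or 3, 0.0600 to 0.0875), Chpf (WT replicate 2 or 3 or MUT replicate 3, 0.0518 to 0.0589) and Chsy3 (WT replicate 2 or 3, 0.0522 to 0.0556). In REG against MUT they were Impad1 (without any library but REG replicate 2, 0.0520 to 0.110), Susd5 (WT replicate 2 or 3, MUT replicate 1 or 2 or REG replicate 1 or 2, 0.0526 to 0.0975), Hapln3 (any MUT library or REG replicate 1 or 3, 0.0559 to 0.0842), Col2a1 (MUT replicate 2 or 3 or REG replicate 1 or 3, 0.0610 to 0.0789) and Col11a1 (MUT replicate 1 or 3 or REG replicate 3, 0.0513 to 0.0717). There the calls of Chst11 (adjusted p = 0.0653), Trps1 (0.0519) and Gdf5 (0.0832) were lost without MUT replicate 3.

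Markers of other cell types were counted beside the same shares of all genes. These were 20.5% higher and 14.6% lower in MUT than in WT, and 11.8% and 24.8% in REG than in MUT. Tendon and ligament markers, which bear on Comp, summed to 515 to 649 in REG, 54.4 to 196 in MUT and 398 to 807 in WT, with 1 of 8 higher and 5 lower in MUT than in WT, and 4 higher and 1 lower in REG than in MUT. Osteoblast markers summed to 10192 to 23266 in REG, 951 to 11388 in MUT and 17345 to 31636 in WT, with 0 of 9 higher and 6 lower in MUT than in WT, and 5 higher and 0 lower in REG than in MUT. Erythroid markers, which bear on Sox6, summed to 745 to 1677 in REG, 539 to 999 in MUT and 286 to 765 in WT, with 0 of 8 called in either comparison. The part of these cells in the changes of the members was not tested.

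Markers of neurons, glia, B lymphocytes and skeletal muscle were counted in the same way, beside the same shares of all genes. The counts of B lymphocyte markers called were close to those shares. Neuron markers summed to 4.88 to 19.3 in REG, 41.5 to 94.9 in MUT and 7.84 to 14.4 in WT, with 3 of 8 higher and 0 lower in MUT than in WT, and 0 higher and 4 lower in REG than in MUT. Astrocyte and oligodendrocyte markers summed to 9.64 to 16.9 in REG, 29.7 to 39.7 in MUT and 13.8 to 17.7 in WT, with 3 of 7 tested higher and 0 lower in MUT than in WT, and 0 higher and 3 lower in REG than in MUT. B lymphocyte markers summed to 64.6 to 107 in REG, 328 to 1757 in MUT and 33.8 to 77.8 in WT, with 2 of 8 higher and 0 lower in MUT than in WT, and 0 higher and 2 lower in REG than in MUT. Skeletal muscle markers summed to 39.9 to 388 in REG, 14.7 to 25.3 in MUT and 5.90 to 63.6 in WT, with 0 of 8 called in MUT against WT and 6 higher and 0 lower in REG than in MUT. No marker of any list was at the lowest value of the library throughout a group, and none of these lists held a gene called in REG relative to WT. The part of these cells in the changes of the members was not tested either.

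In the authors' deposited table, at an FDR under 0.05, 2 of the 10 members were called for WT over MUT, where 25.5% of all genes were. These were Comp, with a log2 ratio of 2.22 and an FDR of 0.0181, and Sox6, with 1.49 and 0.0381 in the authors' deposited table, both higher in WT. For REG over MUT the authors' deposited table also called 2, Acan (log2 ratio 2.50, FDR 0.0128) and Comp (1.66, FDR 0.0449), with 41.5% of all genes called. For WT over REG the authors' deposited table called 0. Matn3 was not called there (FDR 0.139 for WT over MUT and 0.0628 for REG over MUT).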

How the data were processed

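RNA libraries of the coronal suture were compared in 3 groups of 3 (REG, MUT and WT). The submitters' processing notes name STAR 2.6.1d, Partek and the build mm10; how genes were counted, on which strand, and how values were normalized is not given in the sources used. The matrix that the authors deposited holds a signal per gene and library: its values read as an estimated read number plus 1, times 1 factor per library, with a 75th percentile of 2.76 in each. Only 8.0% to 38.9% of the values above the lowest were whole multiples of it within 0.001, so no count test was run. The matrix carries no gene names; its columns were matched to the deposited gene table, in which 4 statistics agreed for all 43644 genes within a relative difference of 1e-06. From that table come the authors' p-value with its FDR and the deposited log2 ratio; their test is not stated. The added read compresses folds of low genes.

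Values were tested as log2(value + 0.367) with limma 3.58.1 in R 4.3.3, in 1 fit of all 9 libraries; a fold is therefore on that scale and understates the change of low genes. The constant was the median over libraries of the summed values, divided by 1e+06. A gene was tested (29107 were) if 3 libraries reached 0.367, two-sided, with Benjamini-Hochberg adjustment over all of them, and called at an adjusted p under 0.05. The smallest exact permutation p for 3 against 3 is 0.1, so none was used. Estimated reads were the value over the lowest value of the library, minus 1. The background was the median reads per kb of exon (GENCODE, GRCm38) over 1747 receptor genes, and reads per kb came from exon length. The depth sets the precision: 3 reads, the limit that a count of 0 allows, are up to 1.02 reads per 1e+06 in MUT, 0.164 in REG and 0.183 in WT.

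The members, gene lists and tests were chosen with earlier results of these data known. Named genes are Twist1, the 10 members, at most 3 called genes of smallest p per cartilage list, comparison and direction, and the 3 genes whose centred profile has the smallest mean absolute difference from that of Sox9. Genes compared for 1 library (Frzb, Prg4, Col9a2, Nkx3-2) were named after their values were seen. Bpnt2 was found under its older symbol Impad1. The labels' protocol mentions 3 pairs of samples and the design text 1 week after induction; neither is explained, and same-numbered libraries did not deviate together (correlations from -0.20 to 0.10), so no pairing was used. The fitting steps were tested on simulated data. Alternatives were other scalings, filters, constants and models, background subtraction, libraries left out, and MUT replicate 2, REG replicate 3 or REG replicates 1 and 2 alone as their group.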

Additional observations from a re-analysis of the deposited data

How the results depend on the processing

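The number of members called in MUT against WT, 3, became 0 with quantile scaling and after background subtraction, 1 with a constant 10 times lower or with MUT replicate 2 alone as the group, and 5 with array quality weights, and it ran from 0 to 4 when 1 library was left out. In REG against MUT the 3 became 0 with quantile scaling, after background subtraction and in a fit of the 2 groups only, 1 with a 10 times stricter filter, a constant 10 times lower or MUT replicate 2 alone, and it ran from 1 to 3 when 1 library was left out. In REG against WT it was 0 under every alternative run.

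Directions turned as follows, on the log2 scale; the cause was not tested. In MUT against WT, total-read scaling gave 0.46 for Sox9 and 0.74 for Sox5, quantile scaling 0.22 for Sox5 and -0.28 for Cnmd, and MUT replicate 2 alone -0.059 for Matn1 and -0.43 for Cnmd. In REG against MUT, Sox5 became 0.075 with trimmed-mean scaling, 0.33 after background subtraction and 0.017 with MUT replicate 2 alone, Sox6 became -0.21 with quantile and -0.14 with total-read scaling, and Twist1 became -0.095 with MUT replicate 2 alone. Matn1 there became -0.50 with array quality weights and -1.09 with REG replicate 3 alone, and ran from -1.16 to 2.23 when 1 library was left out. In REG against WT, REG replicate 3 alone gave -0.44 for Sox9, -0.54 for Acan, 0.029 for Hapln1, -0.18 for Matn1, 0.45 for Matn3 and 0.18 for Comp. Matn3 there, -0.06 as reported, was 0.14 with trimmed-mean scaling, 0.10 with quantile scaling, 0.14 with total-read scaling, 0.14 after background subtraction, 0.0098 with a constant 10 times higher and 0.21 with array quality weights. When 1 library was left out, Hapln1 ran from -0.82 to 0.029, Matn1 from -0.25 to 3.14 and Matn3 from -0.32 to 0.41.

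Of all genes, total-read scaling called 11734 higher and 876 lower in MUT than in WT (median change 1.11), and 982 higher and 11455 lower in REG than in MUT (median -1.04), against 5964 and 4261, and 3432 and 7221, as reported. Trimmed-mean scaling gave 4489 and 5044, and 5886 and 5079. The 10225 genes called in MUT against WT became 5045 with quantile scaling, 4149 after background subtraction, 4895 with the stricter filter, 17589 with array quality weights, 4065 with MUT replicate 2 alone, and 4511 to 12756 when 1 library was left out. The 10653 of REG against MUT became 4204, 4018 and 3652 with the first 3 of these, 4264 with MUT replicate 2 alone and 5689 with the 2 groups only. In REG against WT, 1596 genes and 0 members were called without REG replicate 3. With the replicate block, for numbers that the data did not pair, members called were 3 in MUT against WT, 2 in REG against MUT, where Comp was lost (adjusted p = 0.0609), and 0 in REG against WT, with 8766, 9373 and 0 genes of all. Reads in MUT replicate 2, the shallowest library, limit Acan (10.8), Comp (13.8) and Sox9 (17.6).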
